A study of Mus musculus with 12 samples.

Results

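The 7 genes described here from RNA-seq of the mouse fetal liver (FL) are Myb, its chromosomal neighbour Hbs1l, and the globin switching regulators Bcl11a, Zbtb7a, Sox6, Nr2c1 and Nr2c2. They were taken by name from a list, and each name occurred once among the 38127 genes of the count table. The study sorted cells negative for Ter119 and CD45 from the FL of C57BL/6 mouse embryos and sequenced total RNA of 4 groups, with 3 libraries per group. At embryonic day 14.5 (E14.5) these were Kit+CD24+ cells negative for CD54 and CD31, called P2; CD54+CD31+ cells, called CD31+ and gated for endothelium; and CD54+CD31- cells, a gate for epithelial hepatoblasts. The fourth group held CD54+CD31- cells sorted at E18.5. All 4 groups lacked surface Ter119 and CD45, no allele or treatment distinguished them, and each library came from a pool of sorted cells, so that a level is an average over the gate.

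Myb is a DNA-binding activator that keeps blood progenitors dividing and is shut off as they mature. Hbs1l, which lies beside it, encodes a GTPase that with Pelota frees stalled ribosomes, and the stretch between the 2 genes carries enhancers that act on Myb in erythroid cells. Bcl11a and Zbtb7a are zinc-finger repressors that silence embryonic and fetal globin genes, Sox6 is an HMG-box factor that acts with Bcl11a, and Nr2c1 and Nr2c2 (TR2 and TR4) are orphan nuclear receptors that bind direct repeats in globin promoters.

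In the GRCm38 build Myb (ENSMUSG00000019982) lay on the minus strand at chr10:21124935-21160984. Hbs1l (ENSMUSG00000019977) lay on the plus strand at chr10:21295979-21368898, with 134994 bases between the ends of the pair. Zbtb7a (ENSMUSG00000035011) and Nr2c1 (ENSMUSG00000005897) were on the same chromosome, at chr10:81135220-81152995 and chr10:94148023-94197211, both on the plus strand. Bcl11a (ENSMUSG00000000861) was at chr11:24078056-24174123 on the plus strand, Sox6 (ENSMUSG00000051910) at chr7:115470872-116038796 on the minus strand and Nr2c2 (ENSMUSG00000005893) at chr6:92091390-92174294 on the plus strand. Exonic lengths ran from 4607 bases for Nr2c1 to 14935 bases for Nr2c2.

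The sequences just upstream of the RefSeq starts of Myb, Bcl11a and Zbtb7a are shown because these were the 3 genes with the highest P2 levels per length. Each reads 5′ to 3′ on the gene's own strand, from RefSeq on GRCm38.p6, and capitals mark matches on either strand to GATAA (the core of GATA factor sites), CACCC (the core of Klf factor sites) or CANNTG (the E-box). The windows were 250 bases long and lay outside annotated exons, except that the last 25 bases of the Bcl11a window were in an annotated exon and are not printed. Myb at chr10:21160985-21161234, Bcl11a at chr11:24080445-24080669 and Zbtb7a at chr10:81136021-81136270 read as follows.
Myb: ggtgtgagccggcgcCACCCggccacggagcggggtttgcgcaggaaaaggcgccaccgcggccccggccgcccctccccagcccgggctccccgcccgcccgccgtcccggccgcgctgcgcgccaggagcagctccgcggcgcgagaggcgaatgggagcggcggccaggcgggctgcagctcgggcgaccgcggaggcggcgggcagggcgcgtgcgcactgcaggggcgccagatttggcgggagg
Bcl11a: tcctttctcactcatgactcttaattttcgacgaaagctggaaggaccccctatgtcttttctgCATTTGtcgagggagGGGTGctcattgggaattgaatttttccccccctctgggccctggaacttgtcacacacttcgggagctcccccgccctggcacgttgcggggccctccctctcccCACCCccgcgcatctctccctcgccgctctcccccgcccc
Zbtb7a: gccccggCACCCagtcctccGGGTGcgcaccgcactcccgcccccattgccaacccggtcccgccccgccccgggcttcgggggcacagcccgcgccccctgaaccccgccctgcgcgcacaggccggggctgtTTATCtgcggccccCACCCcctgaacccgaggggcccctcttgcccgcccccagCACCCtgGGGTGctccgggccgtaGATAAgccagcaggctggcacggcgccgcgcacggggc

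Myb had 1 CACCC match and neither of the other motifs, in a window of 81.2% G and C. Bcl11a had 2 CACCC matches and 1 CANNTG match. Zbtb7a had 5 CACCC and 2 GATAA matches, with 78.0% G and C. Over 32851 such windows of the RefSeq table, 22.6% held at least 1 GATAA, 52.0% held CACCC and 66.2% held CANNTG. A share of 4.28% held 2 or more GATAA matches, as Zbtb7a did. Hbs1l had 2 CANNTG matches only, Nr2c1 2 of each of CACCC and CANNTG, and Nr2c2 2 CACCC and 1 CANNTG. Sox6 has 6 RefSeq starts and is not summarised by 1 window.

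Library totals ran from 40714017 to 64368883 counts, and 3 genes (Cdk8, Zc3h7a and Il1rapl1) held 10.8% to 23.1% of them. The gates were checked on lists of markers, as counts scaled to a common library size (CPM) summed over a list. The 12 erythroid markers summed to 3558 to 3827 in P2 and to 162 to 1163 elsewhere. Hepatoblast markers summed to 76444 to 88019 in E14.5 CD54+CD31- cells and endothelial markers to 10542 to 11102 in CD31+ cells, and in these groups no erythroid marker was at 0. At E18.5, replicate 1 stood apart, with 6317 for the hepatoblast list against 40771 and 52732 in replicates 2 and 3, and the E18.5 libraries held 22332, 10120 and 10293 for 12 lung epithelium markers, against at most 250.2 in any E14.5 library. P2 replicate 2 stood apart from the other P2 libraries in endothelial markers (437 against 65.1 and 118) and megakaryocyte markers (133 against 56.9 and 56.5). The part of these other cells in the levels below was not tested.

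In P2 cells Myb had the highest mean of the 7 genes per length, and Myb and Bcl11a stood furthest above the other groups. Zbtb7a was close to Myb, and in P2 replicate 1 it was above it (29.6 against 28.5 CPM per kb). Mean levels in P2 were 31.1 CPM per kb of exon for Myb, 28.9 for Zbtb7a, 14.7 for Bcl11a, 13.0 for Hbs1l, 6.08 for Sox6, 5.26 for Nr2c2 and 3.21 for Nr2c1. Among 16617 genes ordered by this measure, Myb was at place 1311 in P2 and at place 9834 in E14.5 CD54+CD31- cells. Zbtb7a was the highest of the 7 in the other 3 groups, with 11.1 CPM per kb in CD31+, 14.4 in E14.5 CD54+CD31- and 15.2 in E18.5 CD54+CD31- cells. The lowest mean there was that of Bcl11a in CD31+ and E18.5 cells and of Myb in E14.5 CD54+CD31- cells. Myb was above Bcl11a in E14.5 CD54+CD31- replicate 2 (1.89 against 1.78) and below it in E18.5 replicate 1 (0.743 against 0.767).

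**Figure D1:**
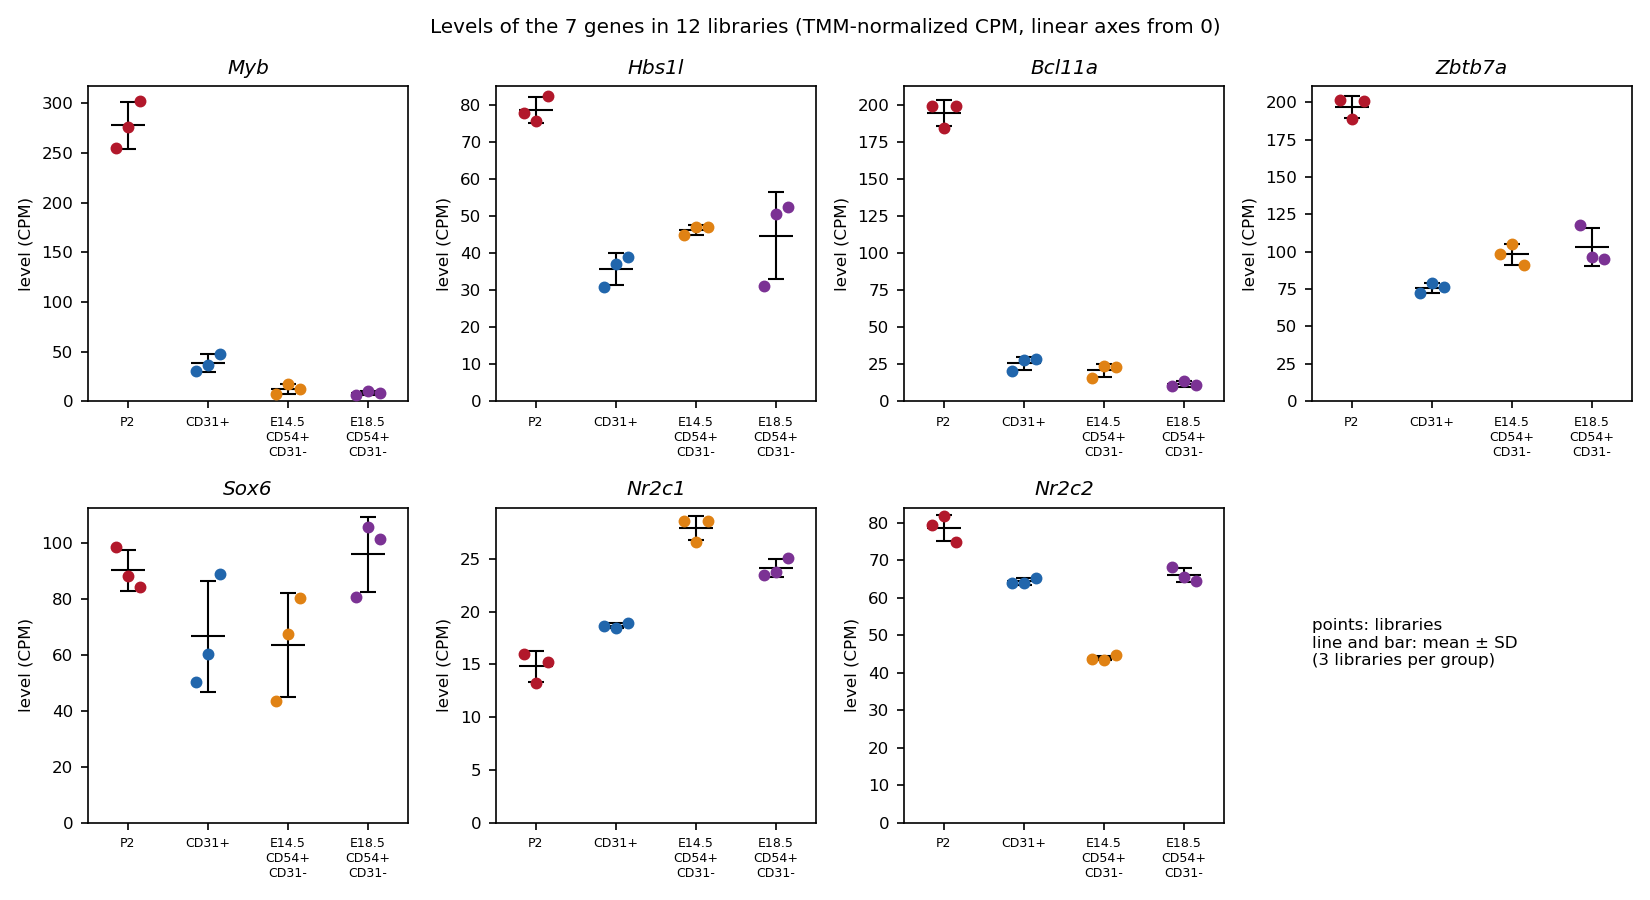
Each panel plots 1 gene, with the level in CPM (TMM-normalized over 12 libraries, linear axis from 0) for 4 groups of 3 libraries; points are libraries, and the line and bar are mean ± SD. Myb and Bcl11a in P2 sit far above the other groups, while Nr2c1 is lowest in P2 and highest in E14.5 CD54+CD31- cells.

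Myb, the progenitor activator, was at 255, 276 and 302 CPM in the 3 P2 libraries. In CD31+ cells it was at 30.2, 36.3 and 47.9 CPM, in E14.5 CD54+CD31- cells at 7.58, 16.9 and 12.1 CPM, and at E18.5 at 6.64, 10.2 and 8.05 CPM. The P2 libraries and the CD31+ libraries each stood apart from all others, and the 2 CD54+CD31- groups overlapped. Myb was higher in P2 than in E14.5 CD54+CD31- cells by 4.49 ± 0.28 on the log2 scale (SE, adjusted p = 2.21e-07, quasi-likelihood F test of edgeR, p adjusted after Benjamini and Hochberg over all genes, as in all tests that follow). It was also higher in P2 than in CD31+ cells (log2 difference 2.85 ± 0.26, adjusted p = 3.57e-06), and higher in CD31+ than in E14.5 CD54+CD31- cells (1.64 ± 0.26, adjusted p = 0.000240). Some markers of other blood cells moved with this last difference. All 8 megakaryocyte markers were higher in CD31+ cells (445 to 820 CPM summed, against 69.2 to 85.8). Of 9 macrophage markers tested, 1 was higher (Mrc1, 5.67) and 5 were lower, with a median log2 difference of -0.98. The macrophage sum (1358 to 1621 against 133 to 251 CPM) was mostly Mrc1, at a mean of 1416 CPM in CD31+ cells. Of 3 lymphoid markers tested, 2 were higher. The lymphoid sum (19.0 to 26.1 against 1.19 to 4.34 CPM) was mostly Ebf1, at a mean of 19.2 CPM in CD31+ cells. The erythroid sum was lower (513 to 687 against 713 to 1163 CPM). Of the 12 erythroid markers, 1 was higher (Kit, 2.41) and 8 were lower, with a median log2 difference of -0.57. The part of these markers' cells in the Myb difference was not tested. In these bulk samples fewer cells that express a gene and less RNA per cell cannot be told apart.

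Hbs1l, the ribosome-rescue GTPase beside Myb, was at 77.9, 75.8 and 82.6 CPM in P2. Its levels were 30.8, 37.2 and 39.0 CPM in CD31+ cells, 44.9, 47.1 and 47.1 CPM in E14.5 CD54+CD31- cells, and 31.1, 50.7 and 52.4 CPM at E18.5. P2 stood apart from every other group, and the low E18.5 value came from replicate 1. Hbs1l was higher in P2 than in E14.5 CD54+CD31- cells by 0.75 ± 0.098 (log2, SE, adjusted p = 5.62e-05) and than in CD31+ cells by 1.13 ± 0.099 (adjusted p = 2.50e-06). It was lower in CD31+ than in E14.5 CD54+CD31- cells (-0.38 ± 0.098, adjusted p = 0.00575), the opposite direction to Myb, a call that was lost when all 12 libraries were fitted together (adjusted p = 0.0741).

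Within each library, the ratio of Myb to Hbs1l per kb of exon was 2.38 in P2 on average, with a range of 2.21 to 2.48. It was 0.719 in CD31+ cells, 0.177 in E14.5 CD54+CD31- cells and 0.128 in E18.5 CD54+CD31- cells, so that Myb exceeded Hbs1l in P2 and was below it in every other library. Of 3 further genes beside the pair, Ahi1, the cilium gene next to Myb, was higher in P2 than in both other E14.5 groups (log2 difference 1.24 ± 0.22 and 0.94 ± 0.21, adjusted p = 0.000458 and 0.00223). Aldh8a1, an aldehyde dehydrogenase gene, was lower in P2 than in E14.5 CD54+CD31- cells by -6.76 (log2), and Pde7b, a phosphodiesterase gene, was lower in P2 than in CD31+ cells by -2.91 (log2).

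**Figure D2:**
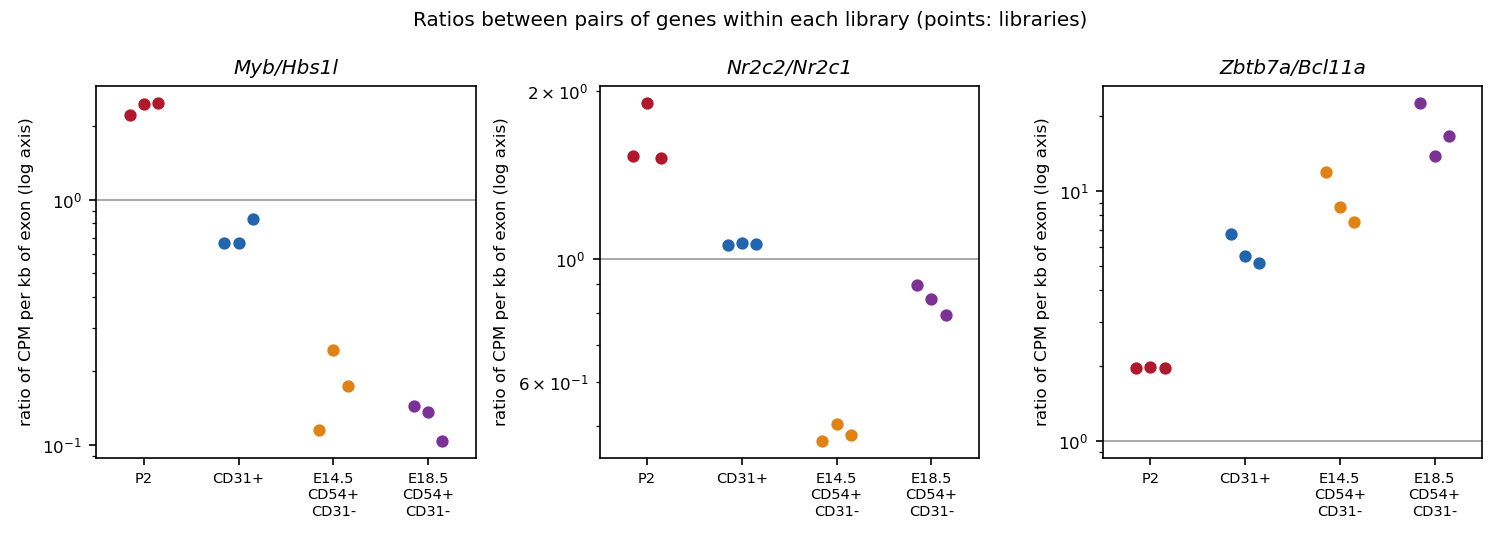
Points are libraries, 3 per group, and the vertical axes are ratios of CPM per kb of exon on a log scale, with a line at 1. Myb/Hbs1l and Nr2c2/Nr2c1 are above 1 in all P2 libraries and below 1 in all CD54+CD31- libraries, and Zbtb7a/Bcl11a is lowest in P2.

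Bcl11a, the fetal globin repressor, was at 199, 184 and 199 CPM in P2. It was at 20.7, 27.8 and 28.6 CPM in CD31+ cells, at 15.99, 23.5 and 23.4 CPM in E14.5 CD54+CD31- cells, and at 10.1, 13.5 and 11.1 CPM at E18.5. P2 was far above the rest, CD31+ and E14.5 CD54+CD31- cells overlapped, and the E18.5 libraries were below all others. The difference between P2 and E14.5 CD54+CD31- cells was 3.19 ± 0.17 (log2, SE, adjusted p = 6.88e-08), and that between P2 and CD31+ cells was 2.91 ± 0.17 (adjusted p = 1.83e-07). Between CD31+ and E14.5 CD54+CD31- cells it was 0.29 ± 0.16 and did not pass the test (adjusted p = 0.139).

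Zbtb7a, the other repressor (LRF), was at 202, 189 and 201 CPM in P2. In the CD31+ libraries it was at 72.2, 79.0 and 76.6 CPM, in E14.5 CD54+CD31- cells at 98.4, 105 and 91.2 CPM, and at E18.5 at 118, 96.7 and 94.8 CPM. P2 was highest and CD31+ lowest, with the 2 CD54+CD31- groups overlapping between them. It was higher in P2 than in E14.5 CD54+CD31- cells (log2 difference 0.99 ± 0.083, adjusted p = 1.94e-06) and than in CD31+ cells (1.36 ± 0.084, adjusted p = 2.47e-07). In CD31+ cells it was lower than in E14.5 CD54+CD31- cells (-0.38 ± 0.083, adjusted p = 0.00226).

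The 2 repressors therefore differed in how much lower they were outside P2. Per kb of exon, Zbtb7a exceeded Bcl11a by a ratio of 1.96 in P2 (range 1.95 to 1.98 over libraries), 5.81 in CD31+, 9.36 in E14.5 CD54+CD31- and 17.7 in E18.5 CD54+CD31- cells. As a percentage of the P2 mean, Bcl11a was at 13.2% in CD31+, 10.8% in E14.5 CD54+CD31- and 5.95% in E18.5 cells, and Myb was at 13.7%, 4.39% and 2.99%. The summed erythroid markers were at 17.1%, 24.9% and 8.56% of P2 in the same 3 groups. The markers of this sum differed among themselves, Slc4a1 being at 186% of P2 in E14.5 CD54+CD31- cells. Of the 12 markers taken singly, 4 were at a lower percentage than Myb in CD31+, 1 in E14.5 CD54+CD31- (Kit, 3.48%) and 5 in E18.5 cells, and 4, 1 and 7 were lower than Bcl11a. The summed erythroid markers, Myb and Bcl11a were all highest in P2 and lowest in E18.5 cells. Between CD31+ and E14.5 CD54+CD31- cells they parted: the sum was higher in E14.5 CD54+CD31- cells (24.9% against 17.1%). Myb was lower there (4.39% against 13.7%), and the difference for Bcl11a did not pass the test. The part of the erythroid markers' cells in these differences was not tested.

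**Figure D3:**
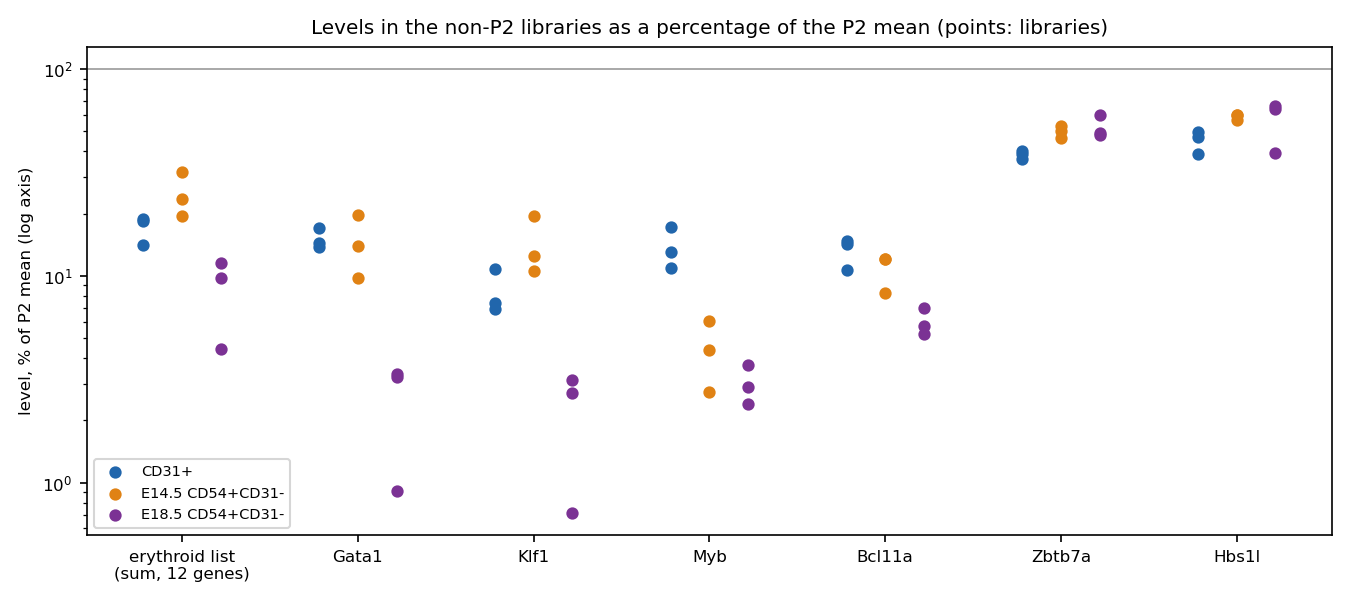
The vertical axis (log scale) gives the level in each library outside P2 as a percentage of the P2 mean, for the sum of 12 erythroid markers and for 6 genes; points are libraries and the line marks 100%. In E14.5 CD54+CD31- cells Myb lies at 2.73% to 6.08%, below every value of the summed list (19.5% to 31.8%), while Zbtb7a and Hbs1l stay between 36.6% and 66.5% in all 9 libraries.

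Sox6, the HMG-box partner of Bcl11a, was at 98.4, 88.1 and 84.2 CPM in P2. It was at 50.4, 60.4 and 88.9 CPM in CD31+ cells, at 43.6, 67.3 and 80.2 CPM in E14.5 CD54+CD31- cells, and at 80.6, 106 and 102 CPM at E18.5. Its libraries spread widely within CD31+ and within E14.5 CD54+CD31- cells, and replicate 3 was the highest of its group in CD31+ and in E14.5 CD54+CD31- cells. None of the 3 differences at E14.5 passed the test: P2 against E14.5 CD54+CD31- cells 0.48 ± 0.24 (log2, SE, adjusted p = 0.0905), P2 against CD31+ 0.43 ± 0.24 (adjusted p = 0.126) and CD31+ against E14.5 CD54+CD31- 0.059 ± 0.24 (adjusted p = 0.837). Leaving out replicate 3 of E14.5 CD54+CD31- cells brought the first to 0.68 (adjusted p = 0.0387), and leaving out replicate 3 of CD31+ cells brought the second to 0.75 (adjusted p = 0.0123).

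Nr2c1, the TR2 receptor gene, was the one member lower in P2. Its levels were 16.01, 13.2 and 15.2 CPM in P2, 18.6, 18.5 and 18.9 CPM in CD31+ cells, 28.6, 26.6 and 28.6 CPM in E14.5 CD54+CD31- cells and 23.5, 23.8 and 25.1 CPM at E18.5. The 4 groups did not overlap on this scale. In P2 it was lower than in E14.5 CD54+CD31- cells by -0.93 ± 0.10 (log2, SE, adjusted p = 1.16e-05) and than in CD31+ cells by -0.35 ± 0.099 (adjusted p = 0.00915), and the latter call was lost without P2 replicate 2 (-0.26, adjusted p = 0.0616) or without CD31+ replicate 3 (-0.28, adjusted p = 0.0502). In CD31+ cells it was lower than in E14.5 CD54+CD31- cells (-0.59 ± 0.099, adjusted p = 0.000400).

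Nr2c2, the TR4 receptor gene and paralog of Nr2c1, followed another order. It was at 79.3, 81.7 and 74.9 CPM in P2, at 63.9, 63.8 and 65.3 CPM in CD31+ cells, at 43.7, 43.4 and 44.6 CPM in E14.5 CD54+CD31- cells and at 68.2, 65.4 and 64.4 CPM at E18.5. E14.5 CD54+CD31- cells, the highest group for Nr2c1, were the lowest for Nr2c2, and CD31+ and E18.5 cells overlapped. Nr2c2 was higher in P2 (log2 difference 0.82 ± 0.073, adjusted p = 2.93e-06) and in CD31+ cells (0.54 ± 0.073, adjusted p = 8.04e-05) than in E14.5 CD54+CD31- cells. It was higher in P2 than in CD31+ cells with TMM factors (0.28 ± 0.072, adjusted p = 0.00540), a difference that turned to -0.092 (adjusted p = 0.346) with the authors' factors.

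The ratio of Nr2c2 to Nr2c1 per kb of exon was 1.65 in P2 (range 1.52 to 1.91), 1.06 in CD31+ (1.06 to 1.07), 0.486 in E14.5 CD54+CD31- (0.471 to 0.504) and 0.845 in E18.5 CD54+CD31- cells (0.793 to 0.895). No library of a group overlapped another group in this ratio, which needs no scaling between libraries. Nr2c2 shares 4590 exonic bases with Mrps25, a mitochondrial ribosomal protein gene on the opposite strand, and whether the counting used strand is not given in the sources used here, so reads of the 2 genes may not be told apart there. Mrps25 was at a mean of 153 CPM in P2, 57.4 in CD31+, 92.3 in E14.5 CD54+CD31- and 19.3 in E18.5 CD54+CD31- cells. Like Nr2c2 it was higher in P2 than in E14.5 CD54+CD31- cells (log2 difference 0.71, adjusted p = 0.0231) and than in CD31+ cells (adjusted p = 0.000421). Unlike Nr2c2 it was lower in CD31+ than in E14.5 CD54+CD31- cells (-0.69, adjusted p = 0.0280) and at E18.5 than at E14.5 (-2.07, adjusted p = 1.83e-05). Shorter exonic overlaps of Myb, Bcl11a and Nr2c2 were with opposite-strand genes that had 0 counts in every library. With the strand setting unknown, these zeros do not show that no reads were shared or lost there. A further 266 bases of Hbs1l are shared with 4930455C13Rik, which was not analysed here.

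Over the 7 genes, 5 were higher and 1 lower in P2 than in E14.5 CD54+CD31- cells, where 70.0% of 15461 genes tested were called (33.8% higher and 36.1% lower). Against CD31+ cells 5 were again higher in P2 and 1 lower, with 73.7% of all genes called (34.3% higher, 39.4% lower). Between CD31+ and E14.5 CD54+CD31- cells 2 were higher and 3 lower, with 65.6% called (31.7% higher, 34.0% lower). The median log2 difference of the 7 genes in these comparisons was 0.82, 1.13 and 0.059, beside -0.011, -0.13 and -0.031 over all genes tested. Most genes differed between these sorted groups, so a call by itself sets no member apart from the rest. These comparisons share libraries and are not independent of each other.

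**Figure D4:**
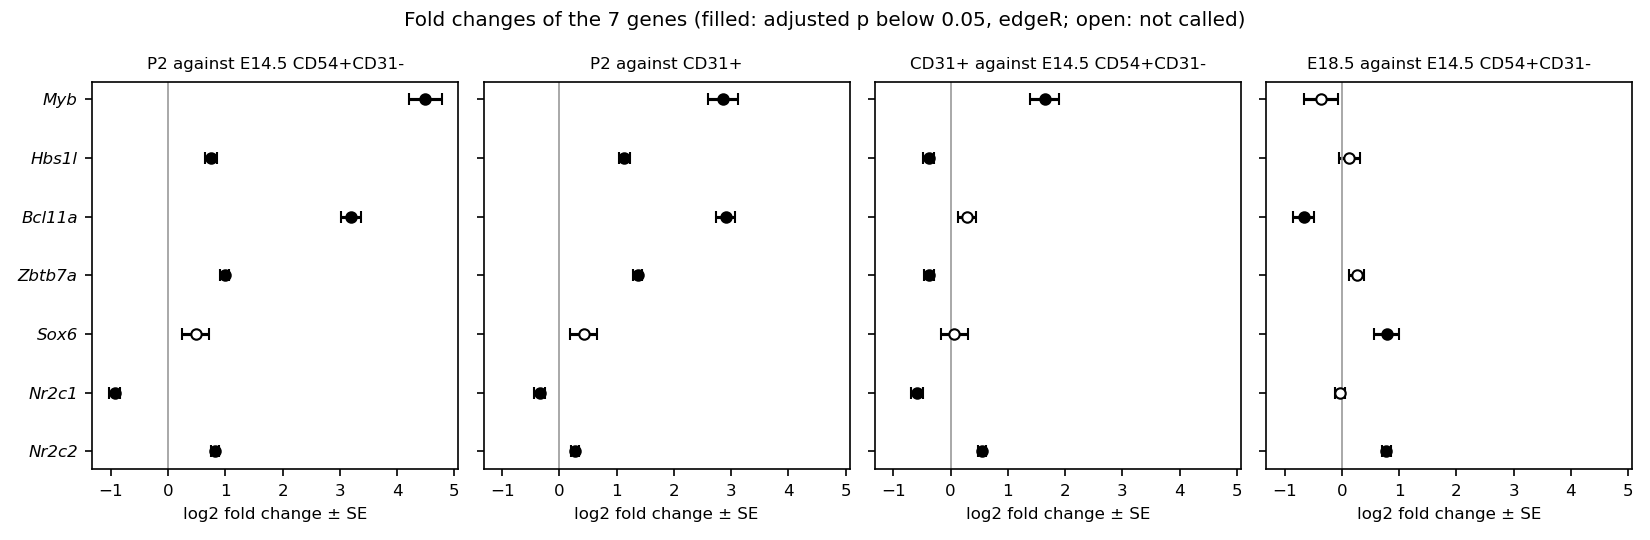
Points are log2 fold changes with SE bars for the 7 genes in the 4 comparisons; filled points had an adjusted p under 0.05 and open points did not. Myb and Bcl11a carry the largest values in both P2 comparisons (4.49 and 3.19, then 2.85 and 2.91), and all 7 lie between -0.67 and 0.78 in the comparison of ages.

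Between E18.5 and E14.5 CD54+CD31- cells, Nr2c2 and Sox6 were higher at E18.5 and Bcl11a was lower. This comparison used the 6 CD54+CD31- libraries only, on a scale that put the log2 difference of a gene 0.19 higher, at the median over 15863 genes, than the scale of all 12 libraries. On the 6-library scale Bcl11a was at 14.8, 20.9 and 20.6 CPM at E14.5 and at 10.5, 13.7 and 11.2 CPM at E18.5, with no overlap (log2 difference -0.67 ± 0.18, SE, adjusted p = 0.0133). The call was lost with the authors' factors (-0.44, adjusted p = 0.0503) and without E14.5 replicate 3 (-0.62, adjusted p = 0.0590).

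Sox6 was at 40.3, 59.9 and 70.8 CPM at E14.5 and at 84.0, 107 and 103 CPM at E18.5 on the same scale (0.78 ± 0.22, adjusted p = 0.0156). Its E18.5 libraries were all higher, and the call was lost without E18.5 replicate 2 (0.71, adjusted p = 0.0516). Nr2c2 differed by 0.77 ± 0.078 (adjusted p = 0.000181). Nr2c1 was at 26.4, 23.7 and 25.2 CPM at E14.5 and at 24.5, 24.02 and 25.4 CPM at E18.5, overlapping on this scale (-0.027 ± 0.087, adjusted p = 0.798).

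The other 3 members were not called for age: Zbtb7a (0.26 ± 0.13, adjusted p = 0.111), Hbs1l (0.13 ± 0.19, adjusted p = 0.553) and Myb (-0.36 ± 0.30, adjusted p = 0.306). In all, 2 members were higher and 1 was lower, beside 69.4% of 15863 genes called (35.9% higher, 33.5% lower). Without E18.5 replicate 1, the library with the fewest hepatoblast and the most lung epithelium counts, the values were 0.73 for Nr2c2, 0.87 for Sox6 and -0.60 for Bcl11a, all still called, and Hbs1l was called as well (0.32 ± 0.076, adjusted p = 0.00451). Lung epithelium markers were 10120 to 22332 CPM in the E18.5 libraries and mesenchymal markers 4225 to 4459 CPM, against 155 to 169 and 1169 to 1222 CPM at E14.5. Erythroid markers were 162 to 420 CPM at E18.5 and 713 to 1163 CPM at E14.5. Their part in the differences between ages was not tested.

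The order of the 4 groups was set by 1 fit over all 12 libraries, in which 29 of the 42 pairs of groups over the 7 genes were called. The share of all 16643 genes called in this fit was 67.8% for P2 against CD31+, 65.7% for P2 against E14.5 CD54+CD31-, 60.8% for CD31+ against E14.5 CD54+CD31- and 68.6% for E14.5 against E18.5 CD54+CD31- cells. For Myb the order was P2, CD31+, E14.5 CD54+CD31- and E18.5 CD54+CD31- cells, and the last pair was not called (adjusted p = 0.0865). Bcl11a had the same order, with CD31+ and E14.5 CD54+CD31- cells not called (adjusted p = 0.160) and every other pair called. Hbs1l was highest in P2, and no pair of its other 3 groups was called in this fit (adjusted p from 0.0741 to 0.805). The CD31+ libraries were nevertheless all below those of E14.5 CD54+CD31- cells, and without E18.5 replicate 1 CD31+ cells were called lower than E14.5 (-0.38, adjusted p = 0.00434) and E18.5 CD54+CD31- cells (-0.53, adjusted p = 0.000756). Zbtb7a ran from P2 through E18.5 and E14.5 CD54+CD31- cells, not called between them (adjusted p = 0.538, but -0.50 for E14.5 against E18.5 with the authors' factors, adjusted p = 0.00190), to CD31+ cells. The call between E14.5 and E18.5 cells for Zbtb7a changed in 7 of 19 alternatives.

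The order of the other 3 members changed with the setting. Sox6 ran from E18.5 through P2 and CD31+ to E14.5 CD54+CD31- cells, and the ends alone were called (adjusted p = 0.0437), a call lost without E18.5 replicate 2 (adjusted p = 0.116) or 3 (0.100), without CD31+ replicate 2 (0.0561) or without any 1 P2 library (0.0526 to 0.0575). CD31+ cells were called below E18.5 cells for Sox6 in 12 of 19 alternatives. Nr2c1 ran from E14.5 through E18.5 CD54+CD31- and CD31+ to P2 cells, and the first pair was not called (adjusted p = 0.0641). Its last pair, P2 below CD31+ cells by -0.33 (adjusted p = 0.00794), moved to between -0.11 and -0.13 without any 1 E14.5 CD54+CD31- library (adjusted p from 0.298 to 0.371), and was not called without a filter on low counts (-0.14, adjusted p = 0.352). Nr2c2 had E14.5 CD54+CD31- cells lowest in every alternative. Its P2, E18.5 and CD31+ cells stood in that order, the last pair not called (adjusted p = 0.659), but with the authors' factors P2 and CD31+ cells were both below E18.5 cells (-0.45, adjusted p = 0.000568, and -0.36, adjusted p = 0.00381). For Nr2c2 the call between CD31+ and E18.5 cells changed in 8 of 19 alternatives.

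Against E18.5 cells, P2 was higher for 5 members and lower for Nr2c1, where 80.6% of 16643 genes were called (36.6% higher, 44.0% lower). With the authors' factors P2 was higher for Myb and Bcl11a only and lower for Sox6, Nr2c1 and Nr2c2, so the direction for Nr2c2 turned (from 0.25 to -0.45) and the calls for Hbs1l and Zbtb7a were lost (0.12 and 0.22). The log2 difference was 5.06 for Myb and 4.07 for Bcl11a, and over 19 alternatives it stayed between 4.37 and 5.23 and between 3.37 and 4.19. CD31+ cells were higher than E18.5 cells for Myb (2.20, adjusted p = 2.52e-05) and Bcl11a (1.15, adjusted p = 0.000116) and lower for Zbtb7a and Nr2c1. For this pair 68.5% of genes were called (38.8% higher, 29.7% lower). With the authors' factors the members other than Myb and Bcl11a, 5 in all, were all called lower. The same held with DESeq2, with its size factors in edgeR, without a filter on low counts and with at least 10 counts in every library. It also held without any 1 E14.5 CD54+CD31- library. Of the 12 pairs of groups for Myb and Bcl11a, 10 had the same call in all 19 alternatives, and of the 30 for the other 5 members, 15 did.

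The closest paralogs of the members mostly had the opposite direction in P2. Beside these and the list counts that follow, 33.8% of all genes tested were higher and 36.1% lower in P2 than in E14.5 CD54+CD31- cells. Against CD31+ cells these shares were 34.3% and 39.4%. They were 31.7% and 34.0% in CD31+ against E14.5 CD54+CD31- cells, and 35.9% and 33.5% at E18.5 against E14.5. Of 7 paralogs, 6 were lower and 1 was higher in P2 than in each of the other E14.5 groups, with a median log2 difference of -3.46 against E14.5 CD54+CD31- cells and of -1.72 against CD31+ cells. The higher one was Mybl2, the B-Myb gene of dividing cells (1.31 ± 0.13 and 1.24 ± 0.13, adjusted p = 5.75e-06 and 8.21e-06). Sox13, a relative of Sox6, was lower in P2 than in E14.5 CD54+CD31- cells (-4.73 ± 0.27), and Bcl11b, the T-lineage relative of Bcl11a, was lower in P2 than in CD31+ cells (-4.63 ± 0.63). Some paralog levels were very low: Bcl11b was at a mean of 0.084 CPM in P2, 2.12 in CD31+ and 0.43 in E14.5 CD54+CD31- cells. In P2, Zbtb7c was at 0.29 and Mybl1 at 1.31 CPM, so large log2 differences of such genes start from few counts. Between CD31+ and E14.5 CD54+CD31- cells 1 paralog was higher (Bcl11b, 2.29) and 4 lower, among them Sox5 (-2.87). At E18.5 against E14.5, 2 were higher, with Bcl11b at 4.42, and 2 were lower, with Mybl2 at -2.14.

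Corepressors were mostly higher in P2, where 33.8% of all genes were higher against E14.5 CD54+CD31- cells and 34.3% against CD31+ cells. Of 13 subunits of NuRD, the deacetylase complex recruited by Bcl11a and Zbtb7a, 9 were higher and 2 lower in P2 than in E14.5 CD54+CD31- cells (median log2 difference 0.65), and 10 were higher and 2 lower than in CD31+ cells (median 0.71). Mta2, a scaffold subunit, was the most raised in the first (1.53 ± 0.11) and Mta3 in the second (1.03 ± 0.081), and Chd3, an alternative remodeller subunit, was lower in both (-2.44 and -2.26). With the authors' factors the counts were 7 higher and 2 lower, then 8 higher and 3 lower, and the medians were 0.39 and 0.34. Between CD31+ and E14.5 CD54+CD31- cells 5 were higher and 4 lower, and at E18.5 against E14.5 there were 2 higher, with Chd3 at 1.52, and 7 lower, with Mbd3 at -1.36.

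The LSD1-CoREST-DNMT1 group holds corepressors that Bcl11a and the TR2 and TR4 receptors recruit. Of its 8 genes tested, 6 were higher and 1 lower in P2 than in E14.5 CD54+CD31- cells (median log2 difference 0.86), with Rcor2 at 1.76 and Rcor3 at -0.42. The counts were also 6 and 1 against CD31+ cells (median 0.47), with Nrip1 at 0.85 and Rcor2 at -1.04, and 4 and 2 with the authors' factors. Over all genes tested with TMM factors, 33.8% and 34.3% were higher in these P2 comparisons. In CD31+ against E14.5 CD54+CD31- cells 5 were higher, with the CoREST scaffold gene Rcor2 at 2.80, and 2 were lower, and for age 3 were higher and 3 lower, with the maintenance methyltransferase gene Dnmt1 at -1.60.

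Among 5 coactivators of Myb, 4 were higher in P2 than in E14.5 CD54+CD31- cells, led by Psip1 at 0.71 (log2), and Crebbp was at -0.055, not called. Against CD31+ cells 3 were higher, with Psip1 at 1.26, and Crebbp was lower at -0.48. With the authors' factors these counts became 2 higher and 1 lower, then 1 higher and 2 lower. Over all genes tested with TMM factors, 33.8% and 34.3% were higher in these P2 comparisons. In CD31+ against E14.5 CD54+CD31- cells 2 were higher and 1 lower, and for age 3 were higher, with Crebbp at 0.91, and 2 lower, with Psip1 at -0.99.

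Of the 7 genes tested that work with Hbs1l in ribosome rescue and the decay of stalled messages, 5 were higher and 2 lower in P2 than in E14.5 CD54+CD31- cells, and 6 were higher than in CD31+ cells. Abce1, the ribosome recycling ATPase gene, was at 1.17 and 1.64 (log2) in these comparisons. Gspt2, whose sequence is close to that of Gspt1 so that its reads are uncertain, was lower in P2 than in E14.5 CD54+CD31- cells at -2.18. All 7 were lower in CD31+ than in E14.5 CD54+CD31- cells, from -0.30 for Ttc37 to -2.43 for Gspt2, and all 7 were lower at E18.5 than at E14.5, from -0.43 for Ttc37 to -1.37 for Abce1. With the authors' factors these 7 became 6 and 5. The counts in P2 against E14.5 CD54+CD31- cells became 3 higher and 2 lower (median log2 difference 0.073, from 0.34). Against CD31+ cells 6 stayed higher. Over all genes tested with TMM factors, 33.8% and 34.3% were higher in the same P2 comparisons. Pelo, the gene for the partner of Hbs1l, was listed at 0 counts in every library and was not tested, as were Nr2c2ap and Zfpm1 of the other lists. The paper detected Zfpm1 in some FL erythroid progenitors by single-cell qPCR. An exact 0 in this count table is therefore not read as absence of expression, and its source was not tested.

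Of 23 other regulators of fetal and adult globin, 15 were higher and 5 lower in P2 than in E14.5 CD54+CD31- cells (median log2 difference 0.79), and 16 were higher and 5 lower than in CD31+ cells (median 0.55). The most raised was Ikzf1, the Ikaros gene, in the first (3.08 ± 0.21) and Klf1, the erythroid activator of adult beta-globin and of Bcl11a, in the second (3.57 ± 0.25). The most lowered were Hic2, a repressor of Bcl11a, in the first (-1.64) and Gata2, the progenitor GATA factor, in the second (-2.53). With the authors' factors the counts were 14 and 5, then 11 and 7. Over all genes tested with TMM factors, 33.8% and 34.3% were higher in these P2 comparisons. Between CD31+ and E14.5 CD54+CD31- cells 7 were higher, with Gata2 at 5.44, and 7 lower, and at E18.5 against E14.5 there were 7 higher, with Nfix at 4.02, and 13 lower, with Lin28b, a fetal-stage RNA-binding protein gene, at -4.25.

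**Figure D5:**
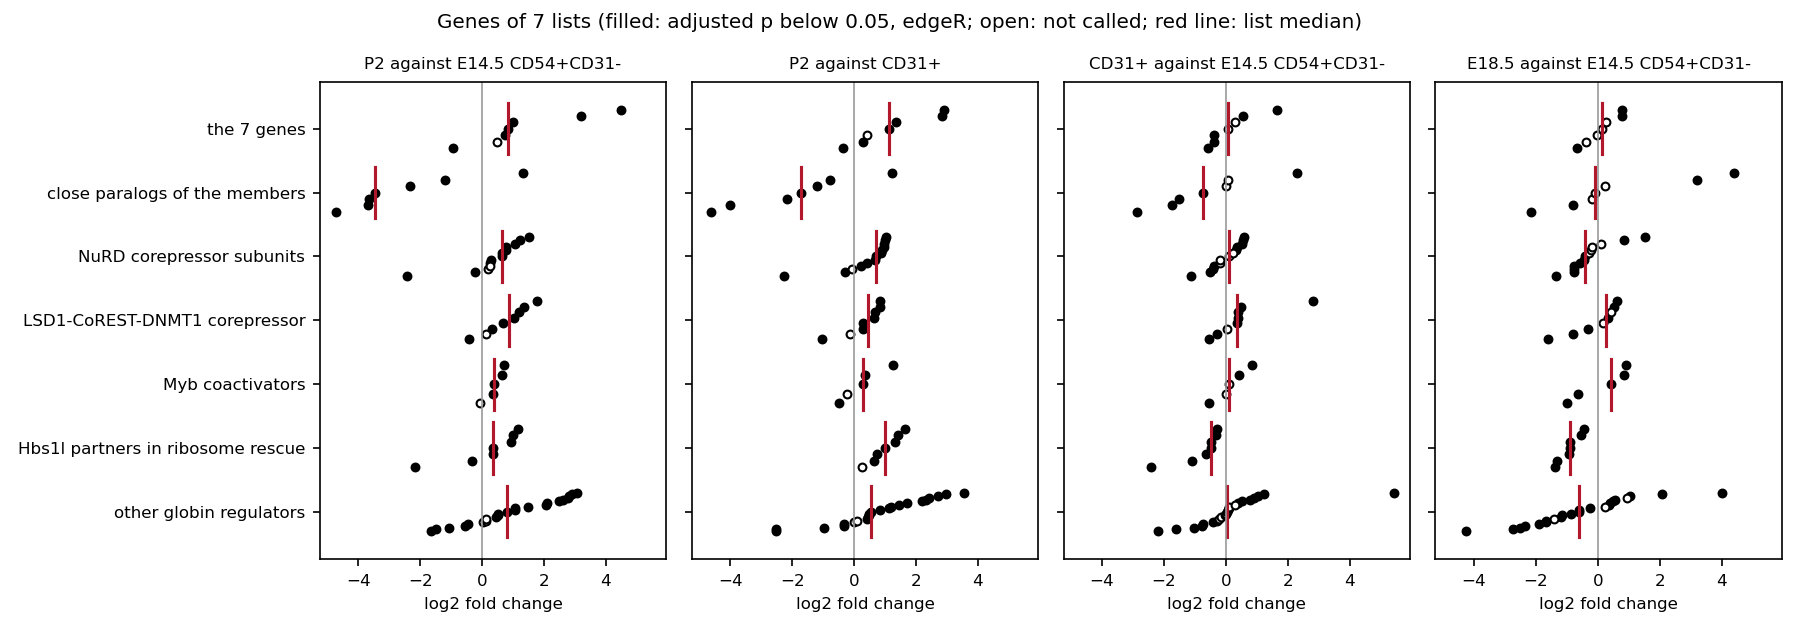
Each point is a gene's log2 fold change in 1 of 4 comparisons, placed by list; filled points had an adjusted p under 0.05, open points did not, and red lines are list medians. In P2 against E14.5 CD54+CD31- cells the median is 0.82 for the 7 genes and -3.46 for their paralogs.

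The globin genes that these regulators act on were not called between E14.5 groups by edgeR with TMM factors. Over all genes tested, 65.6% to 73.7% were called in these comparisons. Of 8 globin genes tested, edgeR called 0 in each of the 3 E14.5 comparisons, with 0, 1 and 0 at an unadjusted p under 0.05 in P2 against E14.5 CD54+CD31-, P2 against CD31+ and CD31+ against E14.5 CD54+CD31- cells, and DESeq2 called 1, 1 and 0. With the authors' factors edgeR called 2, 2 and 0, all lower in P2, and the median log2 differences in the P2 comparisons were -0.91 and -0.71. At E18.5 against E14.5, 6 of 7 were lower, beside 33.5% of all genes tested. Hbb-y, an embryonic beta-like globin, had 93, 120 and 147 counts at E14.5 and 2, 3 and 0 at E18.5. Hbb-bh1, another embryonic gene, had 21, 30 and 35 counts and then 0 in each library, which allows up to 3. Adult genes had lower means as well: Hba-a1 51.7 and then 10.5 CPM, Hbb-bs 81.5 and 18.9, and Hbb-bt 50.2 and 8.67. The smallest fall of the 7 was that of Hbb-bs (log2 difference -1.93). Summed erythroid markers were also lower at E18.5 (162 to 420 against 713 to 1163 CPM), and their part in the globin differences was not tested. Hba-a1 with Hba-a2, and Hbb-bs with Hbb-bt, are near-identical pairs whose reads are uncertain between the copies.

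The genes whose profile was most like that of each member are given by the root mean square difference of log2(CPM + 1), centred on each gene's own mean, over 12 libraries and 16643 genes. Nearest to Myb was Kit, the receptor used in the P2 gate, at 0.297, followed by Runx3, Kcnab2, Def6 and Gna15 at up to 0.438. Kit was at a mean of 323, 60.1, 11.2 and 11.03 CPM in P2, CD31+, E14.5 and E18.5 CD54+CD31- cells. Near to Bcl11a were Ydjc (0.216), Fcho1, Rpia and Acsl6. For Hbs1l they were Ago2 (0.114), Tab3, Scyl2, Nudt21 and Tasp1, and for Zbtb7a Nsun3 (0.105), Kat8, Cyp4f39, Srl and Ucp2. Sox6 was nearest to Tmx4 (0.202), Rbm41, Fam126b, Tctex1d2 and Kmt2c, Nr2c1 to A930024E05Rik (0.104), Dguok, Ap1g1, Mon2 and Golga4, and Nr2c2 to Zzef1 (0.0773), Ddhd2, Fam98c, Wdr25 and Gpatch2l. The 12 libraries fall into 4 groups, so likeness here is mostly likeness of the 4 group levels.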

How the data were processed

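RNA of sorted FL cells was depleted of ribosomal sequence, made into stranded total RNA libraries and sequenced as single reads. Per the labels and methods, the authors trimmed with cutadapt 1.11, aligned with STAR 2.5.0a to GRCm38 and counted with featureCounts 1.4.6-p3; the strand setting is not given in the sources used here. The deposited files hold raw counts per gene, used here, and a score, which the authors obtained by multiplying a library's counts by 1 factor, used for that factor only.

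The members and gene lists were chosen with earlier results of these data known. edgeR 4.0.16 in R 4.3.3 (TMM factors, filterByExpr, glmQLFit and glmQLFTest, Benjamini-Hochberg adjustment over all genes tested, threshold 0.05) was run on the 9 E14.5 libraries for the E14.5 comparisons, on the 6 CD54+CD31- libraries for age, and on all 12 for the order of groups and for CPM. An SE is the log2 fold change over the root of its F statistic. Exon lengths came from GENCODE vM21, where 37932 of 38127 identifiers were found. Named were the 7 members in every library, the genes with the largest and smallest log2 fold change of a list, the globin genes and the 5 genes most like each member, of which 1 is not reported here. Neighbours, overlaps and genes quoted in addition to show a scaling or a role were chosen after their values were seen. Scripts were tested on simulated counts. Alternatives were DESeq2 1.42.0, other scalings, other filters, a replicate block and leaving out each library; those for the order of groups, and the counts of list genes with the authors' factors, of globin genes with DESeq2 and of single erythroid markers, were chosen after seeing the data. The 3 libraries of a group are biological replicates per the labels. Depth, 40714017 to 64368883 counts, limits counting error only.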

Additional observations from a re-analysis of the deposited data

How the results depend on the processing

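Counts of members called and of all genes called stayed within 1.5 times their value under every alternative run, as did the 29 of 42 pairs called for the order of groups (28 to 34), but 17 of these 42 pairs changed call in at least 1 alternative, and Nr2c2 in P2 against E18.5 cells turned from 0.25 to -0.45 (adjusted p = 0.000568) with the authors' factors and to -0.048 (adjusted p = 0.519) with at least 10 counts in every library. With 1 library left out, members called were 6 to 7 for P2 against E14.5 CD54+CD31-, 5 to 6 for P2 against CD31+, 5 to 6 for CD31+ against E14.5 CD54+CD31- and 2 to 4 for age. In the 9- and 6-library fits, of 476 refitted fold changes of the members, 459 kept direction and call, 7 lost a call, 9 gained one and 1 turned: Nr2c2 in P2 against CD31+, -0.092 (adjusted p = 0.346) with the authors' factors; the cause was not tested. Those factors moved the median log2 difference of all genes by -0.26, -0.37, 0.11 and 0.23 in the 4 comparisons, and the share of calls that were higher from 48.3% to 38.2%, 46.6% to 33.9%, 48.3% to 53.4% and 51.7% to 60.9%. With them Bcl11a was called in CD31+ against E14.5 CD54+CD31- cells (0.40, adjusted p = 0.0333) and Zbtb7a for age (0.50, adjusted p = 0.0161). A minimum of 10 counts in every library ended the call of Nr2c2 in P2 against CD31+ (0.14, adjusted p = 0.0913) and gave one to Zbtb7a for age (0.41, adjusted p = 0.0308). Without CD31+ replicate 1, Bcl11a was called in CD31+ against E14.5 CD54+CD31- cells (0.43, adjusted p = 0.0343). The labels do not say what a replicate number marks, and the libraries were not treated as pairs, since not every pair of the same number correlated above 0.1 (mean r of 0.056, 0.124, 0.130 and 0.051 in the 4 comparisons, lowest 0.020). All 12 r were above 0, and 10 of 12 were highest for their own number, a hint of pairing that the labels do not state and the main fits leave out. With the replicate block 7, 6, 5 and 3 members and 10910, 11460, 10326 and 10329 genes were called, Sox6 being called in P2 against E14.5 CD54+CD31- cells (0.54, adjusted p = 0.0393). Sox6 was also called there when only the 6 libraries compared were fitted (0.47, adjusted p = 0.0401). With 3 libraries per group, small differences such as those of Sox6 are within reach of 1 library.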
